A study of Rattus norvegicus with 6 samples.

Results

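T cells and natural killer (NK) cells in single-cell RNA libraries of the spinal cord were chosen by their transcript counts. A cell entered the gate with at least 3 UMIs (unique molecular identifiers, each standing for 1 counted RNA molecule) summed over Cd3e, Cd3d, Cd3g, Trbc2 and Nkg7. It also needed at most 10 UMIs of C1qa and C1qb and fewer than 50 UMIs of S100a8 and S100a9 per 10000 UMIs of the cell, which set aside phagocytes and neutrophils, and 0 UMIs of Cd79a, a B cell gene. The gate held 193 of 26847 cells. Of these, 99 had a UMI of Cd3e, Cd3d or Cd3g, which encode the CD3 chains of the T cell receptor complex, and were called T cells. Another 46 had none of these and a UMI of Nkg7 or Klrd1, and the rule calls them NK cells. The remaining 48 had neither and had passed on Trbc2 UMIs alone. Since the rule reads Cd3e, Cd3d, Cd3g, Trbc2, Nkg7, Klrd1 and the 5 genes that set cells aside, the levels of those genes are given as a description only.

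The cords came from SD animals aged 6 to 8 weeks, labelled as rats, with 5 animals for each condition and 1 library per group. The injured groups were cords collected 1, 3 and 7 days after a crush at thoracic level 10, and the uninjured group was intact cord. The series uses these libraries to follow the immune reaction to injury, and its libraries of cords injected with MPSS or PBS are not analysed here. A 5-mm section around the injury was digested with enzymes, passed through a 40-µm strainer and treated to lyse erythrocytes, so every share describes recovered cells, and fewer cells of a type cannot be told apart from poorer recovery. A crush treatment is also entered in the labels of the intact library, which was grouped by its title. The organism label is rat, while the gene names in the tables have forms used for mouse, and names are given as the tables give them.

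T cells recognise antigen through a receptor made of variable chains and the CD3 chains. CD8 T cells kill target cells, CD4 T cells direct other immune cells, and regulatory T cells, marked by Foxp3, restrain responses. NK cells carry no rearranged antigen receptor; they read activating and inhibitory receptors of the Klr and Klra families and kill through granzymes and perforin. Both are scarce in the uninjured cord and enter it from the blood after injury, together with far larger numbers of neutrophils and monocytes.

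The libraries held 2757 cells (intact), 7360 (day 1), 9263 (day 3) and 7467 (day 7), with median depths of 3090 to 6648 UMIs per cell. Within the gate, T cells had a median of 2042 UMIs. Each group had 1 library, so differences between groups could not be tested. The 95% intervals given here (Clopper-Pearson for shares, Poisson for levels and binomial for ratios, all exact) cover counting error only, not the differences between animals. Those of levels and ratios treat each UMI as independent and also leave out the spread between cells. They are too narrow where few cells hold most UMIs of a gene. Levels are given as CPM, the UMIs of a gene summed over a class and scaled to a class total of 1000000, and a gene is called higher or lower at a ratio of at least 2-fold in either direction among genes with at least 20 UMIs over both sums. Where a class had 0 UMIs of a gene, the ratio was taken against a floor of 3 UMIs over that class and is a lower bound. Pairs of libraries shared 20 to 91 cell barcodes, and 0 barcodes were shared by gated cells of both libraries of a pair.

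The label was checked on genes of T cells that the rule did not use. Trac, which encodes the constant part of the T cell receptor alpha chain, had UMIs in 61 of the 99. Ms4a4b, a membrane protein gene of T cells, had UMIs in 71 of 99 T cells and 765 CPM, against 2.58 CPM in the cells outside the gate. Thy1, a surface protein of T cells in mice, had 458 CPM in T cells, against 5.09 CPM outside. Its use as a T cell marker in animals labelled as rats was not tested. Ltb, which encodes lymphotoxin beta, had 469 CPM in T cells, against 5.86 CPM outside. These values come from the gated cells themselves and are a description.

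The 46 cells that the rule calls NK did not all carry NK transcripts. Of these, 28 had a UMI of at least 1 of the NK receptor genes Klrd1, Klrk1, Klrb1c and Ncr1, and fewer than 3 UMIs of the primary granule genes Mpo, Elane, Prtn3 and Ctsg. They had 1 to 15 receptor UMIs per cell (median 4.5), and 27 of 28 had 0 granule UMIs. The receptor genes were not limited to these cells. Only 50 of 99 T cells had 0 receptor UMIs, and Klrd1 had UMIs in 42 of 99. A second set of 14 had 5 to 435 granule UMIs per cell (median 154), 0 receptor UMIs in every cell, and a median of 13934.5 UMIs in all. They led with Elane, Prtn3, Mpo and Ctsg, enzymes stored in the granules of neutrophil precursors, and with Ms4a3, a gene of those precursors. Elane had 787 UMIs in 12 of the 14 cells and Prtn3 had 684 UMIs in all 14. The last 4 cells had Nkg7 and neither group of genes. The 14 granule cells go against the NK label and are not called NK below. Comparisons are given for the 28 receptor-bearing cells, a choice made after seeing the data, and for the 46 where the rule asks for them.

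**Figure D1:**
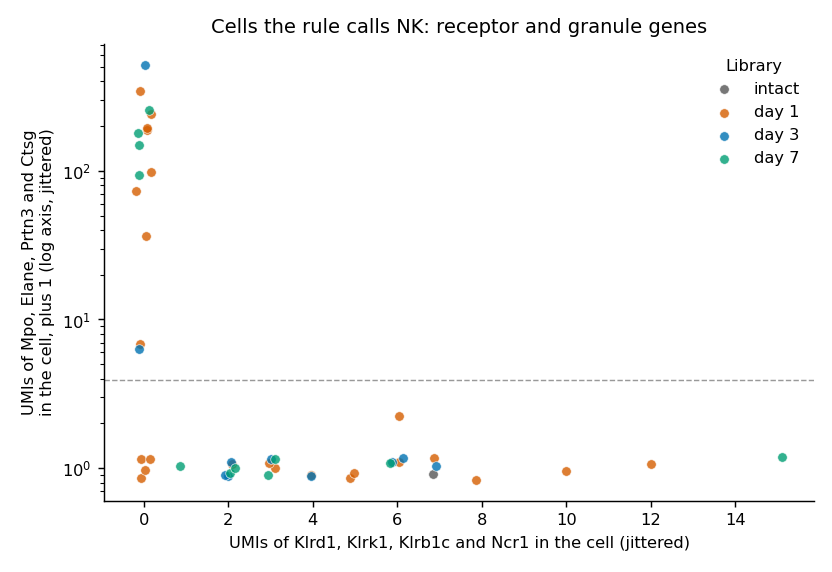
Each point is 1 of the 46 cells the rule calls NK, coloured by library, with its summed UMIs of 4 NK receptor genes on the x axis and its summed UMIs of 4 primary granule genes plus 1 on a log y axis, both jittered. The dashed line marks the minimum of 3 granule UMIs; the 14 cells above it had 5 to 435 granule UMIs and 0 receptor UMIs.

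Nkg7, which encodes a protein of cytotoxic granules, was not limited to lymphocytes in these libraries. Cells with at least 3 UMIs of the 4 granule genes numbered 6 in the intact library, 139 at day 1, 27 at day 3 and 38 at day 7. Nkg7 UMIs were present in 0, 41, 3 and 19 of them in the same order. Only some passed the gate, and 8, 2 and 4 of the NK cells by the rule at days 1, 3 and 7 came from them.

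The 48 cells that passed on Trbc2 alone had few other lymphocyte transcripts. Trac had UMIs in 3 of them, Ccl5 in 3, Cd8b1 in 1, and Klrk1, Klrb1c and Ncr1 in 0, while 33 had UMIs of Gfap, the intermediate filament of astrocytes, and 10 had UMIs of Col1a1, the collagen gene of fibroblasts. After Trbc2, their leading genes were Timp1, Col3a1 and Col1a1, followed by others that include the neuronal gene Stmn2. At day 1, 80 of 659 cells with at least 5 Gfap UMIs had a Trbc2 UMI (12.1%, 9.74 to 14.9), and 2 of them had a Cd3 UMI. Of 124 day 1 cells with at least 5 Col1a1 UMIs, 24 had a Trbc2 UMI (19.4%) and 0 had a Cd3 UMI. In endothelial cells of the same library the Trbc2 share was 1.07%. Median depths were 6584, 9678 and 4518 UMIs for these 3 sets of cells.

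T cells had their highest share 1 day after injury. They made up 11 of 2757 intact cells (0.399%, 0.199 to 0.713), 57 of 7360 cells at day 1 (0.774%, 0.587 to 1.00), 18 of 9263 at day 3 (0.194%, 0.115 to 0.307) and 13 of 7467 at day 7 (0.174%, 0.0927 to 0.298). The day 1 interval lay above those of days 3 and 7 and overlapped that of the intact library. With every cell thinned to 1000 UMIs before the rule was applied, the shares were 0.290, 0.435, 0.140 and 0.134% from intact to day 7. Receptor-bearing NK cells numbered 1 in the intact library (0.0363%), 12 at day 1 (0.163%, 0.0843 to 0.285), 8 at day 3 (0.0864%, 0.0373 to 0.170) and 7 at day 7 (0.0937%, 0.0377 to 0.193). Their intervals overlapped in the 3 injured libraries. Cells passing on Trbc2 alone were concentrated at day 1, with 0, 39, 8 and 1 cells from intact to day 7.

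**Figure D2:**
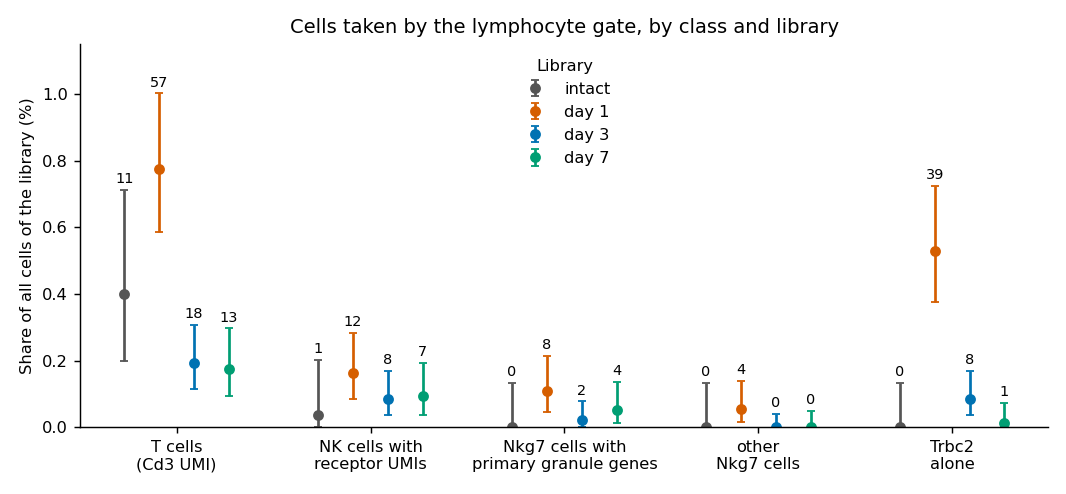
Points give each class of gated cells as a percentage of all cells of its library, with 95% exact Clopper-Pearson intervals for counting error and the number of cells above each. T cells reached 0.774% at day 1, and the Trbc2-alone class, which has no T or NK label, reached 0.530% at day 1.

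Among T and receptor-bearing NK cells together, NK cells made up 1 of 12 in the intact library (8.33%), 12 of 69 at day 1 (17.4%, 9.32 to 28.4), 8 of 26 at day 3 (30.8%, 14.3 to 51.8) and 7 of 20 at day 7 (35.0%, 15.4 to 59.2). All of these intervals overlapped. By the rule as written the shares were 8.33, 29.6, 35.7 and 45.8% in the same order, which takes in the granule cells.

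The limit on C1qa and C1qb bore most on day 7. Of 258 cells with at least 3 UMIs of the gate genes, 37 were set aside on C1qa and C1qb, and 20 of those were in the day 7 library. Of the 25 gated day 7 cells, 13 lay between 5 and 10 UMIs of C1qa and C1qb per 10000, against 5 of 36 at day 3 and 4 of 120 at day 1. Just inside the UMI limit, 41 gated cells had exactly 3 UMIs of the gate genes (10 T cells, 11 NK cells by the rule and 20 Trbc2-alone cells), and just outside it 43 cells had 2. Of these, 29 and 30 were in the day 1 library, as were 20 of the 29 cells over the limit on S100a8 and S100a9.

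Most T cells with a coreceptor transcript had Cd8. Cd8a or Cd8b1, which encode the CD8 coreceptor, had UMIs in 40 of 99 T cells. Cd4, the coreceptor gene of helper T cells, had UMIs in 5, and 0 cells had both. In the remaining 54 cells neither was detected at these depths. Of the 45 T cells with a coreceptor UMI, 88.9% had Cd8 (75.9 to 96.3). Cd8 was read from Cd8b1 (31 cells) and Cd8a (21 cells) together, and Cd4 from its own gene alone. The gate also read Nkg7, a cytotoxic gene. The share therefore describes cells with a detected coreceptor, and the makeup of all 99 T cells was not tested.

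By library, Cd8 UMIs were found in 3 of 11 intact T cells, 20 of 57 at day 1 (35.1%, 22.9 to 48.9), 13 of 18 at day 3 (72.2%, 46.5 to 90.3) and 4 of 13 at day 7. The day 3 share was the highest, and its interval overlapped that of day 1. Cd4 UMIs were found in 1 intact T cell, 4 at day 1, and 0 at days 3 and 7. After each cell was thinned to 1000 UMIs, Cd8b1 was detected in 2, 11, 8 and 2 T cells from intact to day 7, and in at most 0.0898% of endothelial cells of any library. Median depths were 1873 to 2581 UMIs in T cells and 2684 to 4507 UMIs in the endothelial cells.

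**Figure D3:**
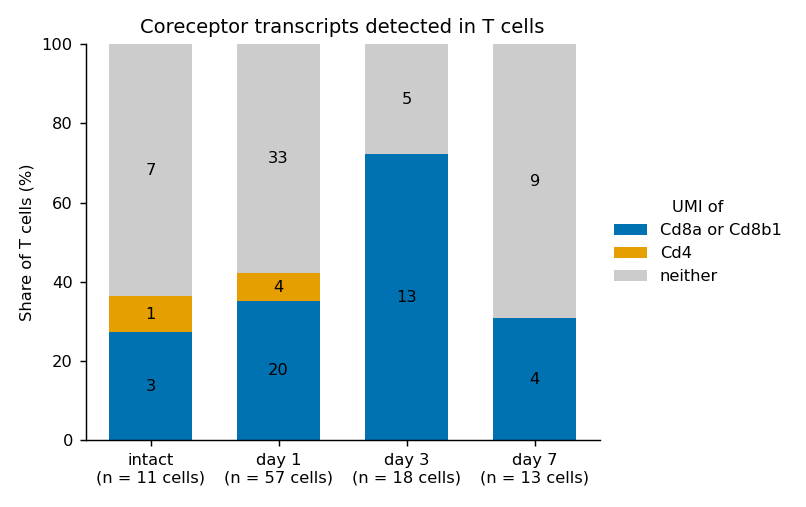
Bars give the share of T cells in each library with UMIs of Cd8a or Cd8b1, of Cd4, or of neither, with cell numbers inside. Cd8 was detected in 13 of 18 T cells at day 3 and in 20 of 57 at day 1.

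Rarer T cell types were represented by single cells. Foxp3, the transcription factor of regulatory T cells, had UMIs in 0, 2, 1 and 0 T cells from intact to day 7. Trdc, the constant gene of the gamma-delta T cell receptor, had UMIs in 0, 3, 1 and 0. Mki67 or Top2a, expressed in dividing cells, had UMIs in 7 of 99 T cells. Klrb1c or Ncr1, receptors typical of NK cells, had UMIs in 10 of 99 T cells.

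Ccl5, a chemokine stored and released by effector T and NK cells, was found in T cells of every library. Its levels were 4596 CPM in the intact library, 6169 at day 1, 5165 at day 3 and 10749.8 at day 7, in 6 of 11, 33 of 57, 8 of 18 and 11 of 13 cells. After thinning to 1000 UMIs, Ccl5 was detected in 54.5, 52.6, 44.4 and 84.6% of T cells, against 0.180, 0.662, 0.146 and 0.601% of endothelial cells and 1.09, 5.31, 1.47 and 5.83% of phagocytes of the same libraries. Phagocytes had median depths of 3178.5 to 8557 UMIs. The T cell shares were thus above those of both other classes in each of the 4 libraries.

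Transcripts of phagocytes were present in the gated cells. Apoe, expressed by macrophages and astrocytes, had UMIs in 27.3, 15.8, 94.4 and 100% of T cells from intact to day 7, and in 91.7, 57.5, 98.9 and 100% of endothelial cells. After thinning, the T cell shares were 27.3, 5.26, 83.3 and 100%, and the endothelial shares 68.6, 19.2, 81.5 and 99.2%. Lyz2, the lysozyme gene of myeloid cells, had UMIs in 0, 19.3, 72.2 and 69.2% of T cells, and in 22.4, 29.4, 88.0 and 82.5% of endothelial cells. With all UMIs the T cell shares of both genes were at or below the endothelial ones, in cells of greater depth. After thinning, the Apoe share was below the endothelial one in the intact library and at day 1, and slightly above it at days 3 and 7. Thinned Lyz2 shares from intact to day 3 were 0, 10.5 and 44.4% of T cells and 7.72, 7.53 and 44.6% of endothelial cells. The source of these transcripts in T cells was not tested. Summed over 16 phagocyte genes, T cells had 1257 CPM in the intact library, 4978 at day 1, 3600 at day 3 and 6258 at day 7. Tmem119, the microglial gene, was at 0 in all but the intact library. Day 1 Lyz2 UMIs were concentrated, with 120, 167 and 63 in 3 of 57 T cells and at most 1 in each of the others. Cells with markers of another class (endothelial, glial, mural, B cell or neutrophil genes above 20 UMIs per 10000, or at least 3 UMIs of Cldn5, Cdh5 and Flt1) were 14 of 99 T cells and 3 of 28 receptor-bearing NK cells.

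Receptor-bearing NK cells were set against T cells to see which programs separate the cytotoxic lymphocytes. They had higher levels of NK receptor, granzyme and signalling adaptor genes, and lower levels of genes of naive and recirculating T cells. Of 2089 genes with enough UMIs, 160 (7.66%) were at least 2-fold higher and 263 (12.6%) at least 2-fold lower in NK cells, with a median log2 ratio of 0.00 over all of them. TMM scaling moved that median to -0.37 and the split to 79 higher and 422 lower. The sums were 65246 UMIs from 28 NK cells and 270583 UMIs from 99 T cells. Cd3 genes, at 0 in NK cells by the rule, and the gate genes Nkg7, Klrd1 and Trbc2 are not read as results. Having 0 Cd3 UMIs, NK cells could pass the gate only on Nkg7 and Trbc2. Nkg7 had at least 3 UMIs in 26 of 28 NK cells, against 33 of 99 T cells. The list counts below are therefore a description.

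NK receptor genes led. Of 18 listed that neither the rule nor the receptor choice read, 7 had enough UMIs, 6 of these were at least 2-fold higher and 0 lower, and their median log2 ratio was 3.27. They were measured in cells chosen for related receptors, so the count is a description. Klra4, of the Ly49 receptor family that reads MHC class I, had 45 UMIs in 13 of 28 NK cells and 7 UMIs in 1 of 99 T cells, a ratio of 26.7 (11.9 to 70.1). Klra8, of the same family, had 30 UMIs in 10 NK cells and 5 UMIs in 1 T cell, a ratio of 24.9 (9.56 to 82.1). The Klra genes are close copies of each other, and reads may be split between them. Klre1, a lectin-like NK receptor, had 644 CPM in NK cells, against 55.4 CPM in T cells, a ratio of 11.6 (6.31 to 22.5).

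Cytotoxic genes followed the same direction. Of 13 listed other than the gate gene Nkg7, 8 had enough UMIs, 6 were at least 2-fold higher and 0 lower in NK cells (median log2 1.43). NK cells were chosen on Nkg7, itself a cytotoxic gene, so the count is a description. Gzma, a granule protease, had 283 UMIs in 16 of 28 NK cells and 63 UMIs in 7 of 99 T cells, a ratio of 18.6 (14.1 to 24.9). Gzmb, the protease that starts apoptosis in target cells, had 705 CPM in NK cells, against 118 CPM in T cells, a ratio of 5.96 (3.72 to 9.67). Prf1, which encodes perforin, the pore that lets granzymes into the target, had 0 UMIs in the receptor-bearing NK cells. Within libraries, the log2 ratio of Gzma was 5.31 at day 1, 2.97 at day 3 and 4.00 at day 7. The day 7 value rests on 8 UMIs in 1 NK cell and 1 UMI in 1 T cell.

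Adaptor and identity genes were also higher. Fcer1g, an adaptor that passes on signals of activating receptors, had 2590 CPM in NK cells, against 562 CPM in T cells, a ratio of 4.61 (3.68 to 5.78). Its log2 ratio was 2.48, 2.26 and 2.55 within days 1, 3 and 7. Cells outside the gate, which include phagocytes that express Fcer1g, had 2631 CPM over the libraries of the NK cells. Tyrobp, a second adaptor shared with phagocytes, had 2437 CPM in NK cells, against 673 CPM in T cells. Irf8, a transcription factor that NK cells use in maturation, had 582 CPM in NK cells, against 40.7 CPM in T cells, a ratio of 14.3 (7.18 to 31.1). Ncr1 and Klrb1c, at 368 and 506 CPM in NK cells against 14.8 and 44.3 CPM in T cells, helped to choose the cells. Phagocyte transcripts were near in both classes when pooled, at 5334 CPM in NK cells and 4435 CPM in T cells over the 16 phagocyte genes. By library they were lower in NK than in T cells at day 1 and higher at days 3 and 7, most so at day 7. At day 1, 3 of 57 T cells had 120, 167 and 63 Lyz2 UMIs, and the others had at most 1. Of the 12 day 1 NK cells, 1 had 27 Lyz2 UMIs. How far these cells set the day 1 and pooled levels was not tested. The part of phagocyte transcripts in Fcer1g and Tyrobp was not tested.

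Chemokines split by library. Xcl1, the lymphotactin that attracts cross-presenting dendritic cells, had 981 CPM in NK cells, against 218 CPM in T cells, a ratio of 4.50 (3.11 to 6.52), and was higher in NK cells in each injured library (log2 2.90, 2.51 and 1.93). Ccl5 was 2.08-fold higher in NK cells over all libraries (1.91 to 2.26). Its log2 ratio was 1.31 at day 1 and 1.44 at day 3, and -0.65 at day 7. Ccl4, another chemokine of activated lymphocytes and phagocytes, had log2 ratios of 1.45, 2.77 and -2.30 in the same order. At day 7 both chemokines were thus lower in NK cells than in T cells, on 7 and 13 cells. Of 9 listed chemokines, 7 had enough UMIs, and 4 were at least 2-fold higher in NK cells over all libraries.

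Genes of naive and recirculating T cells were lower in NK cells. Of 12 listed, all had enough UMIs, 0 were at least 2-fold higher and 7 at least 2-fold lower (median log2 -1.34). The choice of NK cells on Nkg7 makes this count a description as well. Il7r, the receptor for the survival cytokine IL-7, had 3 UMIs in NK cells and 53 UMIs in T cells, 4.26-fold lower (1.38 to 21.3). S1pr1, the receptor that lets lymphocytes leave lymphoid organs, had 2 UMIs in NK cells and 38 UMIs in T cells, 4.58-fold lower (1.18 to 39.2). Lef1, a transcription factor of naive T cells, had 3 UMIs in NK cells and 45 UMIs in T cells, 3.62-fold lower (1.16 to 18.2). Ccr7, a receptor that guides T cells to lymph nodes, had 0 UMIs in NK cells and 41 UMIs in 24 T cells, at least 3.30-fold lower.

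Interferon-response and MHC class II genes were lower too, on few genes. Of 24 interferon-response genes, 6 had enough UMIs and 3 were at least 2-fold lower (median log2 -1.45, or -0.53 without the day 1 library). Ifi27l2a, induced by type I interferon, had 2 UMIs in 1 of 28 NK cells and 158 UMIs in 41 of 99 T cells. Its log2 ratio was -2.83, -1.93 and -2.74 within days 1, 3 and 7. Ratios of the libraries without that 1 NK cell rest on the floor of 3 UMIs and are not measured levels. Cells outside the gate had 291 CPM of Ifi27l2a, between the NK level of 30.7 CPM and the T cell level of 584 CPM. Ly6a, a surface protein of activated lymphocytes and of endothelial cells, had 3 UMIs in NK cells and 215 UMIs in T cells, of which 36.7% were in 1 T cell. Its log2 ratio was -3.41 and -3.35 at days 1 and 3 and 0.00 at day 7, on 3 NK UMIs over all libraries. The 4 MHC class II genes with enough UMIs were all at least 2-fold lower in NK cells (median log2 -1.92). Over 9 alternative settings, 2 to 4 class II genes were lower, with medians from -2.46 to -1.10. The value of -1.10 was found without cells with at least 20 Lyz2 UMIs per 10000. Of the T cell UMIs of Cd74, the class II invariant chain, 55.5% were in 1 cell.

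**Figure D4:**
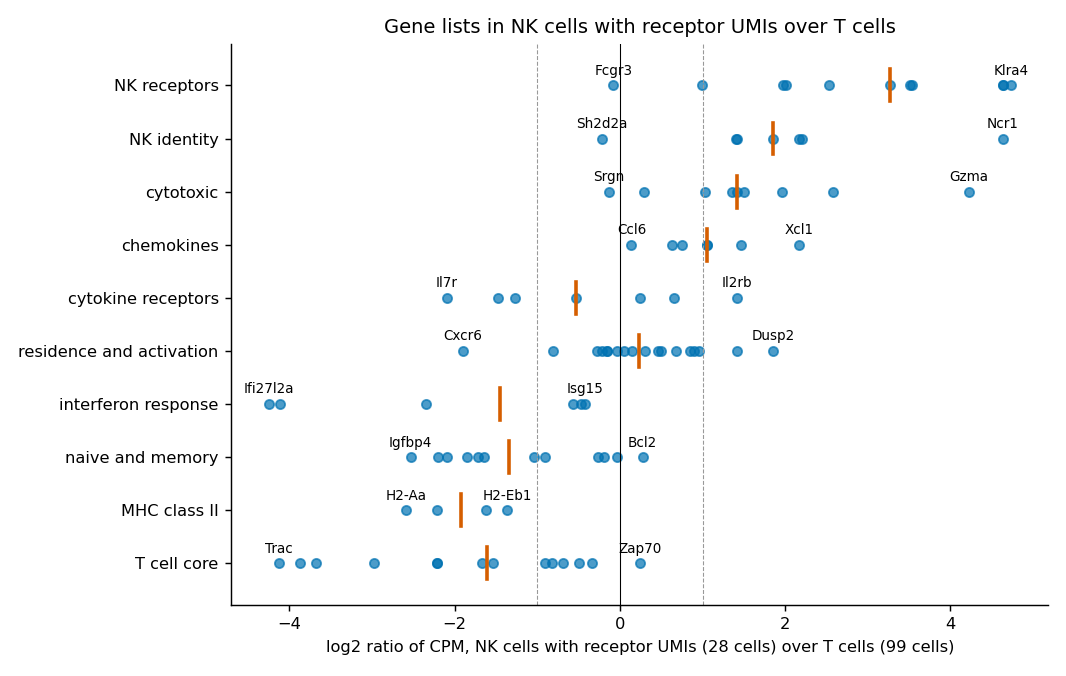
Each point is 1 gene with at least 20 UMIs over both sums, placed at the log2 ratio of its CPM in the 28 receptor-bearing NK cells over the 99 T cells, by gene list; orange bars mark list medians and dashed lines a 2-fold ratio. NK receptors lie at a median of 3.27 and naive and memory genes at -1.34; the NK receptor, NK identity, cytotoxic and T core lists hold genes that the rule or the receptor choice used.

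Receptor chain genes showed where the split of T from NK cells is uncertain. Trac had 2 UMIs in 2 of 28 NK cells and 145 UMIs in 61 of 99 T cells. Trbc1 or Trbc2, however, had UMIs in 19 of the 28 NK cells, and in 8 of 12, 5 of 8 and 6 of 7 of them at days 1, 3 and 7. Cd4, Cd8a and Cd8b1 had 0 UMIs in all 28. How many of the NK cells were T cells whose CD3 transcripts went undetected was not tested.

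By the rule as written, NK cells against T cells gave 617 of 3354 genes (18.4%) at least 2-fold higher and 427 (12.7%) at least 2-fold lower, or 488 and 533 with median-of-ratios scaling. That contrast was led by granule genes. Elane had 787 UMIs in 12 of 46 NK cells by the rule and 1 UMI in 99 T cells. Prtn3 had 684 UMIs in 14 of 46, and 0 UMIs in T cells. Summed over 21 cell cycle genes, NK cells by the rule had 4518 CPM and receptor-bearing NK cells 904 CPM, against 1563 CPM in T cells.

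T cells at day 1 (57 cells, 161122 UMIs) were set against those at days 3 and 7 pooled (31 cells, 81610 UMIs), to see how the cells differ between the first day and the following week. Day 1 T cells had higher levels of glycolytic genes, of Cxcr4 and Rgs1, and of Tcf7 and Lef1, and a lower level of Ifng. Of 1493 genes with enough UMIs, 206 (13.8%) were at least 2-fold higher and 76 (5.09%) at least 2-fold lower at day 1, with a median log2 ratio of 0.16, or 160 and 100 with median-of-ratios scaling, which moved that median to 0.01. Of 9 core T cell genes outside the rule, 0 were past 2-fold either way (median log2 0.64), nor was Ccl5 (ratio 0.888, 0.800 to 0.986). A day 3 T cell with 92 UMIs of Cldn5, a marker of another class, held 16921 of the 81610 later UMIs. Its UMIs add to the total that later CPM are scaled to. Without cells carrying markers of another class, the median of the core list with its rule genes went from 0.39 to -0.01. The part of that cell in the ratios of Tcf7 and Lef1 was not tested.

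Glycolytic genes were the list with the most members past 2-fold. Of 9 with enough UMIs, 7 were at least 2-fold higher and 1 lower at day 1 (median log2 1.34). Pkm, the pyruvate kinase gene of the last glycolytic step, had 639 CPM in day 1 T cells, against 184 CPM at days 3 and 7, a ratio of 3.48 (2.01 to 6.44). It had UMIs in 34 of 57 and 9 of 31 cells. Gapdh, a glycolytic dehydrogenase, had 1210 CPM at day 1, against 490.1 CPM later, a ratio of 2.47 (1.75 to 3.56). Eno1, the enolase gene, had 509 CPM at day 1, against 184 CPM later, a ratio of 2.77 (1.58 to 5.17).

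The cells outside the gate moved the same way and held more of these transcripts. Gapdh had 2245 CPM outside the gate at day 1, against 1453 CPM at days 3 and 7, and Pkm had 1484 CPM, against 721 CPM. The part of free RNA or of the whole tissue in the T cell values was not tested. The exception in the list was Slc2a1, the main glucose transporter of brain endothelium, with 199 CPM in day 1 T cells, against 502 CPM later, and 87.8% of the later UMIs were in 1 cell. Hilpda, a hypoxia-induced lipid droplet gene, had 354 CPM at day 1, against 98.0 CPM later, a ratio of 3.61 (1.71 to 8.76).

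**Figure D5:**
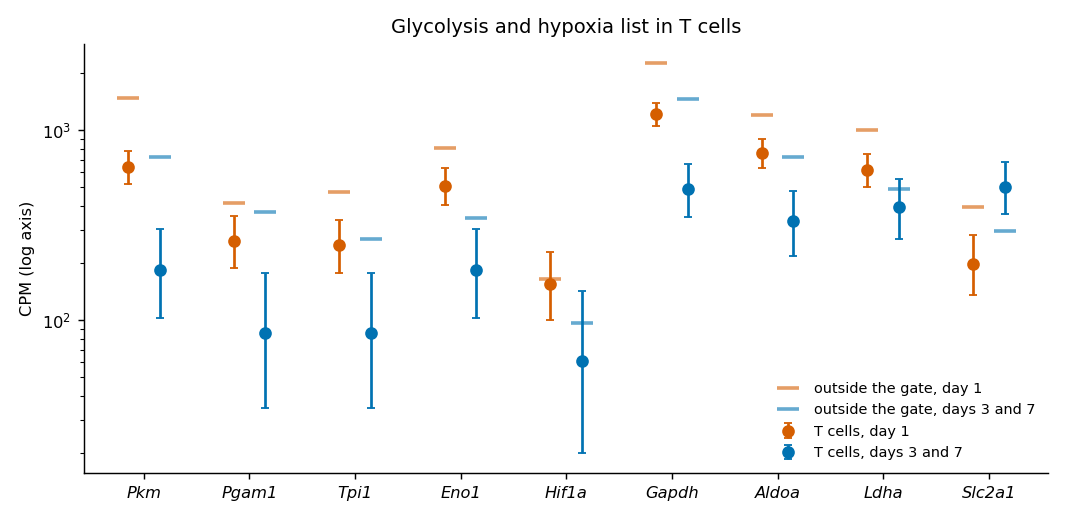
CPM on a log axis for the 9 glycolysis and hypoxia genes with at least 20 UMIs, in T cells of day 1 and of days 3 and 7 (points, with 95% exact Poisson intervals) and in the cells outside the gate (dashes). All but Slc2a1 are higher in day 1 T cells, and the dashes are higher at day 1 for all 9.

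Cxcr4 and Rgs1 were higher in day 1 T cells and lower at day 1 in the cells outside the gate. Cxcr4, the chemokine receptor for CXCL12, had 24 UMIs in 18 of 57 day 1 T cells and 2 UMIs in 2 of 31 later ones, a ratio of 6.08 (1.51 to 53.1). Outside the gate Cxcr4 had 54.5 CPM at day 1, against 70.8 CPM later. The 11 intact T cells had 6 Cxcr4 UMIs in 4 cells, or 215 CPM, so the lower levels were those of days 3 and 7 (18 and 38.4 CPM). Rgs1, which dampens chemokine receptor signals in activated and resident lymphocytes, had 434 CPM at day 1, against 135 CPM later, a ratio of 3.22 (1.70 to 6.75), and 122 CPM outside the gate at day 1, against 322 CPM later. By library Rgs1 had 35.9 CPM in intact T cells, 434 at day 1, 72 at day 3 and 269 at day 7.

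Some genes of naive and memory T cells were higher at day 1. Tcf7, the transcription factor of naive and memory T cells, had 25 UMIs at day 1 and 4 UMIs later, a ratio of 3.17 (1.09 to 12.5). Lef1 had 31 UMIs in 23 cells at day 1 and 6 UMIs in 5 cells later, a ratio of 2.62 (1.08 to 7.67), and 8 UMIs in 6 of 11 intact T cells. Of the 12 naive and memory genes, 4 were at least 2-fold higher and 1 lower at day 1 (median log2 0.22, or -0.06 without cells carrying markers of another class), and Ccr7 (ratio 0.818, 0.391 to 1.78) was not among them.

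Ifng, which encodes interferon gamma, went the other way. It had 4 UMIs in 4 of 57 day 1 T cells and 22 UMIs in 8 of 31 later ones, 10.9-fold lower at day 1 (3.69 to 43.3). By library Ifng had 323 CPM in intact T cells, 24.8 at day 1, 234 at day 3 and 346 at day 7, so that day 1 was the lowest of the 4. Outside the gate Ifng had at most 0.282 CPM. Xcl1 had 106 CPM at day 1, against 270 CPM later, 2.55-fold lower (1.30 to 5.12). Its later level came from day 7, with 768 CPM, since day 3 had 2 UMIs in 1 of 18 cells, or 36.0 CPM.

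Cytotoxic genes rested on few T cells. Of 7 with enough UMIs, among them the gate gene Nkg7, 0 were at least 2-fold higher and 2 at least 2-fold lower at day 1 (median log2 -0.52). Against day 7 alone the median was 0.72, so the direction of the list was set by day 3. Gzma had 20 UMIs in 4 day 1 cells and 43 UMIs in 3 later cells, and 51.2% of the later UMIs were in 1 cell. Gzmb had 15 UMIs in 8 day 1 cells and 17 UMIs in 4 later cells. Both are therefore values of single cells more than of the class.

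Of the genes named by the size of the ratio, some were spread over many cells and others lay in single cells. Crip1, a small LIM protein, had 1974 CPM in day 1 T cells, against 760 CPM later, a ratio of 2.60 (1.97 to 3.47), in 45 of 57 and 21 of 31 cells. Tgif1, a transcriptional repressor, had 254 CPM at day 1, against 73.5 CPM later, a ratio of 3.46 (1.46 to 9.98), in 24 of 57 and 6 of 31 cells. Thbs1, which encodes thrombospondin of platelets and monocytes, had 113 UMIs in 13 day 1 cells and 0 later, at least 19.1-fold higher, with 41.6% of them in 1 cell and 827 CPM outside the gate at day 1, against 353 CPM later. Of the genes lower at day 1, Bsg, which encodes basigin of brain endothelium, had 145 UMIs at day 1 and 289 UMIs later, with 71.0 and 88.9% of them in 1 cell each. Sparc, a matrix protein gene, had 35 UMIs at day 1 and 52 UMIs later, with 54.3 and 82.7% of them in 1 cell each. The 8 endothelial genes summed to 1334 CPM in day 1 T cells, against 3198 CPM later, and to 115 CPM in those of day 7.

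Receptor-bearing NK cells at day 1 (12 cells) were set against those of days 3 and 7 pooled (15 cells). Day 1 cells had higher levels of the Ly49 receptor genes Klra4 and Klra8, and granzyme levels differed between days 3 and 7. Of 418 genes with enough UMIs, 45 (10.8%) were at least 2-fold higher and 31 (7.42%) at least 2-fold lower at day 1, with a median log2 ratio of 0.05, or 34 and 41 with TMM scaling, which moved that median to -0.13. Klra4 had 36 UMIs in 8 of 12 day 1 cells and 9 UMIs in 5 of 15 later ones, a ratio of 5.63 (2.66 to 13.3). Klra8 had 25 UMIs in 7 cells and 5 UMIs in 3 cells, a ratio of 7.03 (2.64 to 23.5), and 0 UMIs at day 7. Of 18 listed NK receptor genes that had not chosen the cells, 4 had enough UMIs. Of these, 3 were at least 2-fold higher and 0 lower at day 1 (median log2 2.17). Klra4 and Klra8 are among them, are close copies, and reached the minimum mostly through their day 1 UMIs. The count is therefore a description.

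Gzma showed how the later NK cells differed among themselves. It had 4930 CPM at day 1 in 10 of 12 cells, 5911 CPM at day 3 in 5 of 8 cells and 615 CPM at day 7 in 1 of 7 cells, and the ratio of day 1 over both later days was 1.21 (0.952 to 1.54). Gzmb had 527, 1190 and 231 CPM in the same order, in 5 of 12, 6 of 8 and 2 of 7 cells. Xcl1 had 790 CPM at day 1, 205 at day 3 and 2922 at day 7. Rgs1 had 564, 287 and 2153 CPM in the same order. Ltb was detected in 3 of 12, 0 of 8 and 6 of 7 cells. The day 7 cells thus had lower Gzma and higher Xcl1, Rgs1 and Ltb than those of days 1 and 3. Klra4 had 154 CPM at day 7, on very few UMIs of a sum of 13007. Apoe had 753, 1560 and 7688 CPM in NK cells of days 1, 3 and 7. The sum of 16 phagocyte genes was 3537, 4064 and 11840 CPM, and its part in the day 7 values was not tested. Trbc1 or Trbc2 had UMIs in 6 of the 7 day 7 cells, and whether some of those were T cells was not tested.

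Several NK values came from 1 cell. Ccl6, a myeloid chemokine, had 58 UMIs at day 1 and 0 later, with 93.1% of them in 1 cell. Cebpb, a myeloid transcription factor, had 91.4% of its day 1 UMIs in 1 cell. Among genes lower at day 1, 88.1% of the later Vim UMIs and 93.2% of the later Mt2 UMIs were in 1 cell. Selplg, a surface glycoprotein of leukocytes, was higher at day 1 with a broader base: 34 UMIs in 12 of 12 cells and 16 UMIs in 8 of 15 later cells, a ratio of 2.99 (1.61 to 5.80). By the rule as written, day 1 NK cells had 322 of 1847 genes (17.4%) at least 2-fold higher and 83 (4.49%) at least 2-fold lower (202 and 151 with median-of-ratios scaling), a contrast of 24 with 21 cells that takes in 8 and 6 granule cells.

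T cells of the 3 injured libraries (88 cells, 242732 UMIs) were set last against those of the intact cord (11 cells, 27851 UMIs). Injured cords had higher T cell levels of Klf2, Srgn and Btg1, and lower levels of Xcl1, Ifng and Jun. Of 1662 genes with enough UMIs, 332 (20%) were at least 2-fold higher and 148 (8.90%) at least 2-fold lower, with a median log2 ratio of 0.08. TMM scaling moved that median to 0.64 and the split to 548 higher and 43 lower. At the intact depth 1 UMI is worth 35.9 CPM, so low genes could not be compared.

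Klf2, a transcription factor of quiescent and circulating T cells, had 795 CPM in injured cords, against 215 CPM in the intact cord, a ratio of 3.69 (1.67 to 10.2). By library it had 670 CPM at day 1, 900 at day 3 and 1344 at day 7. Outside the gate Klf2 had 885 CPM, against 420 CPM. Srgn, the proteoglycan of cytotoxic granules, had 1236 CPM in injured cords, against 323 CPM in the intact cord, a ratio of 3.82 (1.99 to 8.45), with 1574 CPM outside the gate, against 445 CPM. Btg1, an antiproliferative gene of resting lymphocytes, had 1821 CPM, against 898 CPM, a ratio of 2.03 (1.36 to 3.17), with 718 CPM outside the gate, against 353 CPM. All 3 genes thus differed in the same direction outside the gate, and the part of that in the T cell values was not tested. Gzma had 63 UMIs in 7 injured T cells and 0 in the intact ones, at least 2.41-fold higher. Of these UMIs, 22 and 20 were in single day 3 cells. Of 6 cytotoxic genes with enough UMIs, Nkg7 left aside, 3 were at least 2-fold higher and 0 lower (median log2 1.01). The intact sum was 27851 UMIs, against 242732, so low genes reach the minimum of 20 UMIs mostly through injured cells. The count is therefore a description.

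Ndufa6, a subunit of respiratory complex I, had 102 UMIs in 53 of 88 injured T cells and 1 UMI in 11 intact ones, a ratio of 11.7 (2.05 to 467), while outside the gate it had 265 CPM, against 284 CPM. Xcl1 had 161 CPM in injured cords, against 718 CPM in the intact cord, 4.47-fold lower (2.47 to 7.85), but 65% of the intact UMIs were in 1 cell, and day 7 alone had 768 CPM. Ifng had 107 CPM, against 323 CPM, 3.02-fold lower (1.24 to 6.64), with 55.6% of the intact UMIs in 1 cell. The day 1 library set that ratio, since Ifng had 24.8 CPM at day 1, 234 at day 3 and 346 at day 7. Jun, an immediate early gene, had 511 CPM, against 1328 CPM, 2.60-fold lower (1.75 to 3.78), and 788 CPM, against 2756 CPM, outside the gate. Cd74 had 173 UMIs in 9 injured T cells, with 55.5% in 1 cell, and 0 UMIs in intact ones. The intact library held 1 receptor-bearing NK cell, with 1302 UMIs, among them 9 of Ccl5 and 0 of Gzma, and no comparison was made with it.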

How the data were processed

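The files used are the deposited count tables of the 4 time-course libraries, UMI counts per gene and cell, per the submitters' processing notes made with Cell Ranger 3.0.2; how cells were called, the genome build and the annotation are not given in the sources used here. The libraries held 9661552, 50635770, 72515788 and 30470794 UMIs from intact to day 7 over gene names shared by the tables (28615; 77 further names of 2 tables were left out). A minimum of 200 genes and 500 UMIs per cell and a limit of 20% mitochondrial UMIs left out 0 cells. T and NK cells, the gene lists and the rule were chosen with earlier results of these data known. The gates and thresholds are given with the results; endothelial and phagocyte cells used as background were gated by their own marker genes.

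Scrublet (scanpy 1.11.5), run on each library, called 115 cells in all, 0.428% of 26847, and 0 gated cells; at under 0.5% it is taken not to have worked, and doublets were not removed. Counts were summed by class and scaled to CPM, with no test across 1 library per group. Named genes were the members with the largest ratios in each list, and the 10 highest and 10 lowest log2 ratios of CPM plus 50 among genes with at least 30 UMIs, a UMI in at least 20% of cells of the higher side and there at least 0.5 of the CPM outside the gate; this left out unnamed transcripts, other classes' markers, and the genes of haemoglobin, ribosomal proteins and mitochondria. Other genes were named after their values were seen. Intervals were checked on simulated data. Software was Python 3.11.15, numpy 2.4.6, scipy 1.17.1, pandas 2.3.3, matplotlib 3.10.9, R 4.3.3 and edgeR 4.0.16 (TMM).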

Additional observations from a re-analysis of the deposited data

How the results depend on the processing

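With 1 library per group and few cells, depth limits every comparison: 1 UMI is worth 35.9 CPM in intact T cells, and an absent transcript in a single cell is not evidence of absence. No paired analysis was possible because each group has 1 library. Over 1754 recomputed values, 1559 stayed within counting error or within 1.5 times the count, and 183 moved further. The other 12 were log2 ratios of at least 1 in size that changed sign. Sign changes of smaller ratios are counted among the 183. The receptor-bearing NK class, its comparisons, the removal of cells with at least 20 Lyz2 UMIs per 10000 and most alternatives of the injured against intact comparison were chosen after seeing the data.

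Of the shares, T cells at day 1 were 0.435% of cells after thinning. NK cells by the rule became 0% of intact cells, and 0% of T and NK cells there, with a gate minimum of 4 UMIs and after thinning. At day 1 they became 0.136% after thinning and 0.163% with receptor UMIs required, and at day 7 0.0536% with at most 5 C1qa and C1qb UMIs per 10000. Asking for 2 UMIs of a subset gene gave Cd8 in 19.3 and 38.9% of T cells at days 1 and 3, Cd4 in 1.75% at day 1, and Foxp3 and Trdc in 0% at day 3; Foxp3 was also at 0% there without cells carrying markers of another class.

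Counts of genes past 2-fold followed the minimum of UMIs. Without a minimum, where genes of 1 UMI are set against the floor of 3, and at 50 UMIs, the counts were 2687 and 239 higher and 2566 and 153 lower for NK cells by the rule over T cells. They were 5746 and 43 higher and 592 and 60 lower for receptor-bearing NK cells over T cells, and 1080 and 48 higher and 2759 and 15 lower for day 1 T cells over later ones. They were 1172 and 80 higher and 3815 and 23 lower for NK cells by the rule at day 1, and 2851 and 11 higher and 1555 and 11 lower for receptor-bearing NK cells at day 1. Injured over intact T cells had 117 higher and 42 lower at 50 UMIs and 7616 lower without a minimum. Scaling mattered for receptor-bearing NK cells over T cells (79 higher and 422 lower with TMM), for NK cells by the rule at day 1 (202 and 151 with median-of-ratios) and for injured over intact T cells (548 and 43 with TMM). Without the day 1 library, NK over T cells gave 171 and 143 by the rule and 87 and 100 with receptor UMIs. Without cells carrying markers of another class, 166 genes were lower in receptor-bearing NK cells than in T cells, and 46 lower in day 1 than in later T cells. Without the cell with most UMIs on each side, 45 genes were lower in day 1 T cells, and 23 higher and 16 lower in day 1 receptor-bearing NK cells. Against day 7 alone 18 were lower in those NK cells, and 82 were lower in day 1 than in intact T cells.

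Log2 ratios of at least 1 in size changed sign when 1 library, 1 cell or the cells carrying other markers were left out. For T cells at day 1, the log2 ratio was 1.55 for Xcl1 against day 3 alone, 1.97 for Bsg and 0.92 for Sparc against day 7 alone, 0.95 for Bsg and 0.74 for Sparc without the cell with most UMIs, and 0.17 for Laptm4a without cells carrying markers of another class. For NK cells by the rule it was -0.92 for AA467197 without such cells and 0.44 for Mt2 against day 7 alone. For receptor-bearing NK cells it was 0.78 for Vim and 0.78 for Mt2 against day 7 alone, and -0.15 for Cebpb and 0.50 for Mt2 without the cell with most UMIs. Outside the change of the UMI minimum, list medians in receptor-bearing NK over T cells ran from 2.62 to 3.27 for NK receptors, 1.06 to 1.42 for cytotoxic genes (both lists with the genes that chose the cells) and -1.70 to -0.84 for naive and memory genes over 9 alternatives. For glycolytic genes in day 1 T cells they ran from 1.17 to 1.42 over 10.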
